A study of Mus musculus with 6 samples.

Results

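The genes described here are 10 members of the Nodal and BMP signalling pathways, chosen by name: Nodal, Lefty1, Lefty2, Cer1, Smad7 and Skil (the Nodal arm) and Bmp4, Id1, Id2 and Id3 (the BMP arm). They are 10 of the 21887 coding genes on the assembled chromosomes, and the sites counted for each lie in the gene body or within 50 kb on either side of it in the mouse assembly GRCm38. The series mapped the zinc-finger protein SALL4 in mouse embryonic stem cells by CUT&RUN, an assay in which permeabilised cells are treated with an antibody, and a tethered nuclease releases the DNA that the target protein occupies. SALL4 libraries from a floxed line (genotype Sall4F/F, gene intact and flanked by recombination sites, called wild type) were set against those from a Sall4-/- line, both grown in 2i + LIF medium. Each genotype is 1 line, with 2 SALL4 libraries and 1 IgG library, and the 2 IgG libraries were not analysed here. The labels do not say whether the 2 libraries of a line came from separate cultures, so their spread may be technical. The lists hold binding sites and no expression, so the labelled cell type was not checked against marker genes.

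Nodal and BMP ligands belong to the TGF-beta superfamily and signal through paired serine/threonine kinase receptors. Nodal, with its co-receptor Cripto, activates SMAD2 and SMAD3, whereas BMPs activate SMAD1, SMAD5 and SMAD9, and both branches share SMAD4. In pluripotent cells Nodal signalling is known for its role in the epiblast and in mesendoderm formation, and BMP4 is known for holding back neural differentiation through the ID proteins, together with LIF.

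The value behind each site is the authors' fold enrichment, the number of fragments over the summit (the highest point of the interval) relative to a local background set by their peak caller, with 1 added to both. The median background is under 1 fragment, so the added 1 lowers the values far below the plain ratio of fragments to background. The fold enrichment is used here to rank sites within a list. The lists give no read totals, so depth is given as the number of fragments over a summit, recovered from the fold enrichment and the p-value for 100% of the intervals. The wild-type lists held 55058 and 48295 intervals with a median of 9 fragments at the summit in each, and the knockout lists held 34 and 39, all on X or Y. Sall4 itself, with 10 kb on either side, held 7 intervals in each wild-type list and 0 in each knockout list.

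The first question was whether the sites at these genes depend on Sall4. The windows of the 10 genes held 51 and 43 intervals in wild-type replicates 1 and 2 and 0 in each knockout list. The means were 47 ± 5.66 (SD, n = 2) and 0, and the genotypes did not overlap. On the scale of log2(number + 1) the difference was 5.58, and an exact two-sided permutation of the library labels gave p = 0.3333, the smallest p that 2 libraries against 2 allow. A knockout interval lay in the window of 0.00914% of coding genes in each list, so a count of 0 is the usual value for any gene in the knockout and is not particular to these pathways. All 10 genes lie on autosomes, where neither knockout list holds an interval. Of the 10 genes, 10 had at least 1 interval in each wild-type list, against 75.9% and 73.3% of coding genes.

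Sites called in both wild-type lists, with an overlap of at least 1 bp and no overlap with a knockout interval, are called consensus regions below. At least 1 such region lay in the window of 10 of the 10 genes, against 68.7% of coding genes. Within 10 kb of the gene body, 8 of 10 genes had one, against 42.1% of coding genes, and the exceptions were Lefty1 and Id1. Inside the gene body, 2 of 10 had one (Nodal and Skil), against 27.6% of coding genes. The 10 genes are 1.16 to 28.6 kb long, and this share was not matched for gene length. The 10 genes had a median of 3 consensus regions each, compared with 1 over all coding genes. The members were chosen as a pathway with earlier results of these data known, so these shares are descriptions and were not tested. When only intervals with a fold enrichment of at least 10 were kept, 3 of the 10 genes had a consensus region in their window, against 31.0% of coding genes, a share near the background. With −log10 q of at least 10 instead, 6 of the 10 had one, against 39.5% of coding genes.

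**Figure D1:**
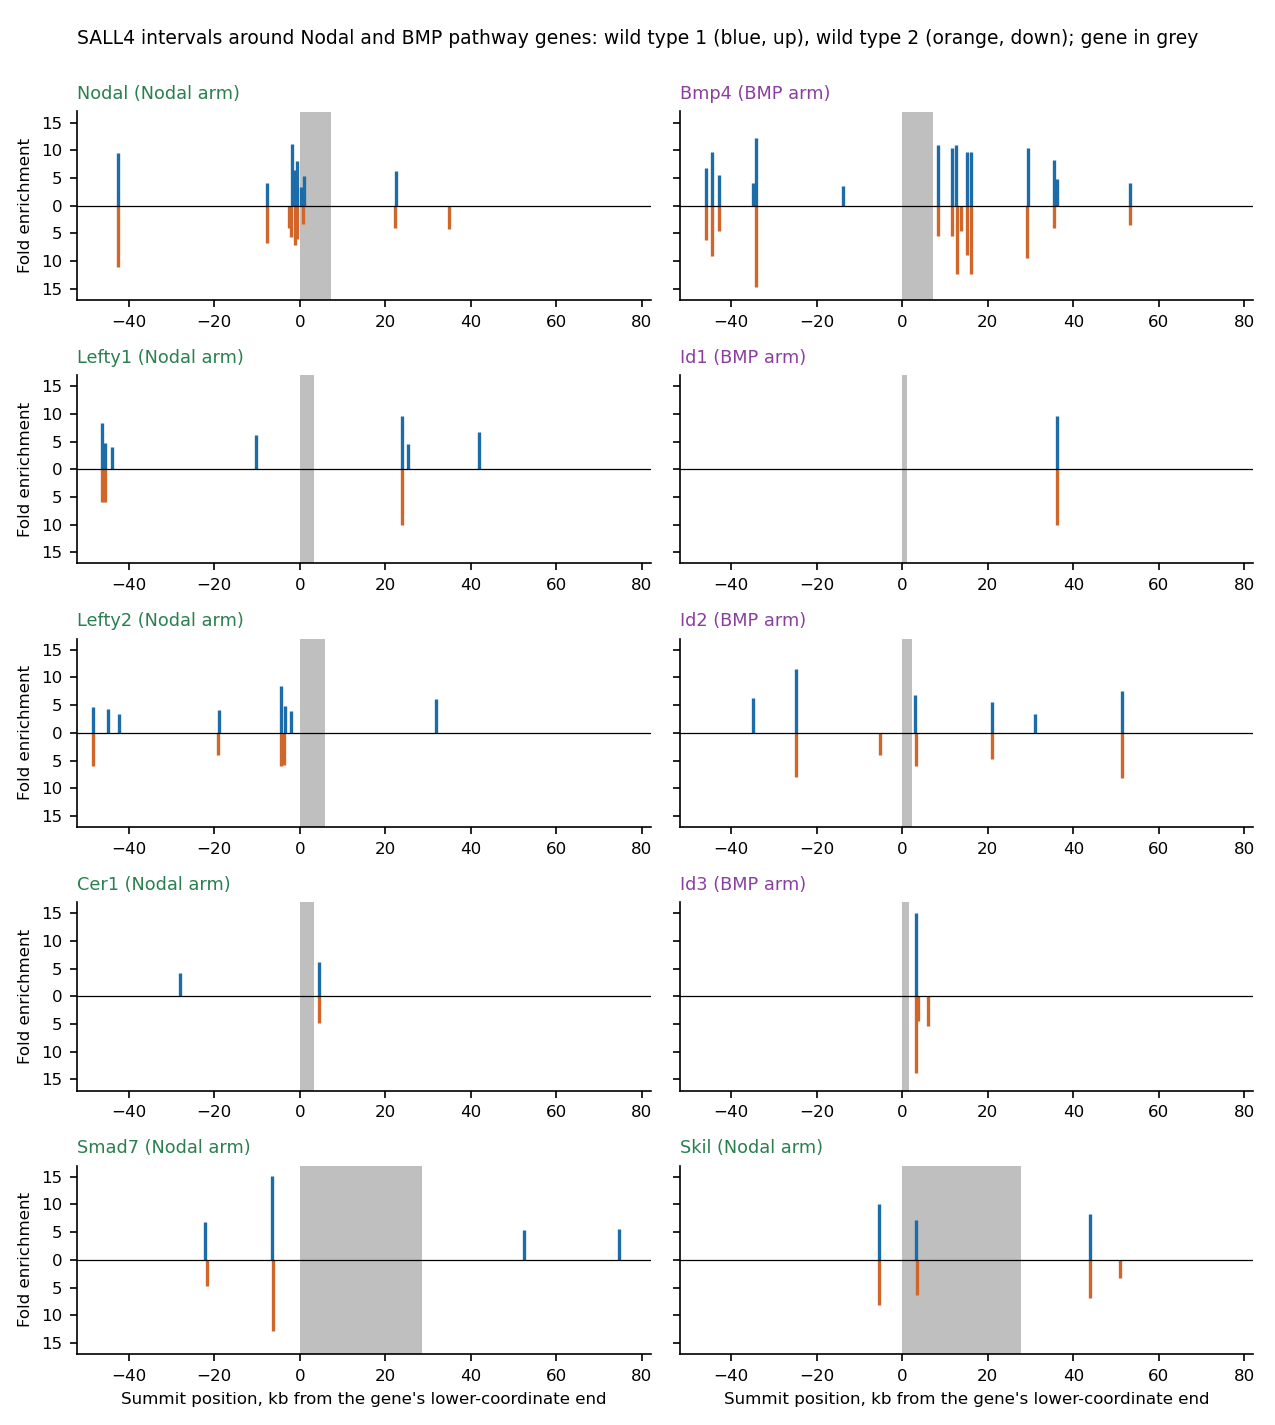
Positions of SALL4 intervals around each of the 10 genes, as distance in kb from the lower-coordinate end of the gene (grey: gene body), against the authors' fold enrichment. Bars upward are wild-type replicate 1 and bars downward wild-type replicate 2, the knockout lists being empty here. Bmp4 and Nodal carry groups of bars next to the gene, Id1 has 1 site about 35 kb away, and Id3 and Smad7 each have 1 tall bar close to the gene.

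Printed sequence helps to place these sites relative to the starts of the genes. RefSeq promoters on GRCm38.p6, which run from 250 bases before to 50 bases after a start, were at hand for 5 of the 10 members (Nodal, Cer1, Bmp4, Id2 and Id3) and for 29 of 39 further pathway genes. None of the 5 member promoters overlapped an interval in either wild-type list. The nearest interval to the Nodal promoter lay 104 bp away in replicate 1 and 333 bp away in replicate 2, and these are different sites. The first (61418125 to 61418260) lies inside the gene and was called in replicate 1 alone, on 4 fragments, and the second is upstream and shared by both lists. At Id2 the nearest interval lay 507 and 505 bp away in replicates 1 and 2. At Bmp4 these gaps were 782 and 821 bp, at Cer1 796 and 771 bp, and at Id3 2817 and 2777 bp. Over the whole table of 32851 promoters, 4.34% and 3.65% overlapped an interval of replicates 1 and 2, and 3.12% a consensus region. A count of 0 among 5 is therefore near the background. Of the 29 further pathway genes matched, 1 had a promoter that overlapped a consensus region, which is also near the background. It was that of Tdgf1, which encodes Cripto, the co-receptor of Nodal, and was picked after its values were seen. The 250 bases upstream of 4 starts are shown as examples of these positions, Tdgf1 with a region over its start and Nodal, Bmp4 and Id2 with regions beside the promoter. Capitals mark the 31 bases centred on the SALL4 summit in Tdgf1 and the motif GGCGCC in Id2, a GC-rich element known from BMP-responsive genes.
Tdgf1, chr9:110946159-110946408, minus strand: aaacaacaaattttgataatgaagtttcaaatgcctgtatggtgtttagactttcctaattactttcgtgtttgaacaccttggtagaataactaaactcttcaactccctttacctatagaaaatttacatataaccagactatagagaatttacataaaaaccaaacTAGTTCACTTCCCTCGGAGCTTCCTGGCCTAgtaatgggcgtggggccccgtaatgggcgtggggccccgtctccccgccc
Nodal, chr10:61417722-61417971, plus strand: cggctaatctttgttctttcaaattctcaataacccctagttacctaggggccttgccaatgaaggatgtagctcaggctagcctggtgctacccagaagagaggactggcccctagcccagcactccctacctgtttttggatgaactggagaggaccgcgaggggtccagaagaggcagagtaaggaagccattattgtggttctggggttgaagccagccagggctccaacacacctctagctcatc
Bmp4, chr14:46390670-46390919, minus strand: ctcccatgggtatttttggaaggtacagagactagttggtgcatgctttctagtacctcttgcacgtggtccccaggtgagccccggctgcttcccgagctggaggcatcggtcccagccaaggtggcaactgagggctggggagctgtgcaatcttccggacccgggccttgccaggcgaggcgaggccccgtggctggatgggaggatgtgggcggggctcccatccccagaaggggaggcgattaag
Id2, chr12:25096093-25096342, minus strand: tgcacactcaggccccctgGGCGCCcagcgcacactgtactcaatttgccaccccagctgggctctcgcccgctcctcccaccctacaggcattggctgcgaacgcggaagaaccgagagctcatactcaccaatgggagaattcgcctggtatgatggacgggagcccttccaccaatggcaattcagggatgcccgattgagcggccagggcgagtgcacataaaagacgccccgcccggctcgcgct

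The Tdgf1 region (chromosome 9, 110946137 to 110946374) spans the start of the gene, with summits 66 and 65 bases upstream of it in wild-type replicates 1 and 2. Its fold enrichments were 4.13 and 6.80, and 28.7% of all 37997 consensus regions were weaker. SALL4's last zinc-finger cluster is known to bind AT-rich DNA, so the motif AATATT was searched on both strands in these promoters over their whole length, together with its shorter core ATATT, which it contains. Neither was found in the 5 member promoters, and the Tdgf1 promoter held the shorter core once and the longer motif at no position. The core was present in 25.3% of all promoters and in 26.7% of the 1025 promoters that overlap a consensus region, and for the longer motif these shares were 6.81% and 5.37%. GGCGCC occurred once, in Id2, against 11.9% of all promoters. CAGAC, the core letters of SMAD binding elements, occurred once each in Cer1 and Tdgf1 and at 2 positions in Id3, and was present in 49.6% of all promoters. These matches are letters in a short window and do not show a site. The consensus regions themselves could not be searched, since no genome sequence was used here.

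Nodal (gene ID 18119, chromosome 10, 61417972 to 61425338) encodes the ligand of the first arm. It had the most intervals of that arm in replicate 2 and as many as Lefty2 in replicate 1. Its window held 8 and 9 intervals in wild-type replicates 1 and 2, or 7.45 and 8.38 per 100 kb, and 0 in both knockout lists. Of all coding genes, 6.20% had a mean density as high. Of the 7 consensus regions of Nodal, 3 lie in the 2 kb upstream of the start, 1 inside the gene, 1 further upstream at 7.68 kb, and 2 in the neighbouring genes Pald1 and Eif4ebp2.

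The 3 regions just upstream of Nodal had summits 0.669, 1.13 and 1.91 kb before the start. In replicates 1 and 2, the fold enrichment of the nearest (61417130 to 61417407) was 8.13 and 6.04, on 15 and 11 fragments. The middle one (61416720 to 61417072) had 6.47 and 7.06, on 18 and 20 fragments. The farthest (61415852 to 61416360) had 11.2 and 5.71, on 21 and 16 fragments, and is the least reproducible of them in strength. With a mean of 8.44 ± 3.87 (SD, n = 2) for that region and 7.08 ± 1.48 for the nearest, the order of the 3 was not resolved. The region inside Nodal (61418709 to 61418917) was weak, with fold enrichments of 5.31 and 3.27 on 7 and 4 fragments. The region at 7.68 kb (61410208 to 61410380) had 4.06 and 6.67, on 5 and 9 fragments.

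The strongest region in the Nodal window, 61375224 to 61375606, lies 42.5 kb upstream inside Pald1, with fold enrichments of 9.54 and 11.1. At the other end, 15.03 kb past the gene, a region in Eif4ebp2 (61440263 to 61440567) had 6.20 and 4.08. Within 5 kb of 1 Nodal interval lay up to 5 intervals in each replicate, counting itself. As many neighbours were found for 7.91% and 5.58% of all intervals in replicates 1 and 2, the median being 2. These shares count single intervals, whereas the number for Nodal is the highest over its window. They therefore do not say how rare such a window is.

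**Figure D2:**
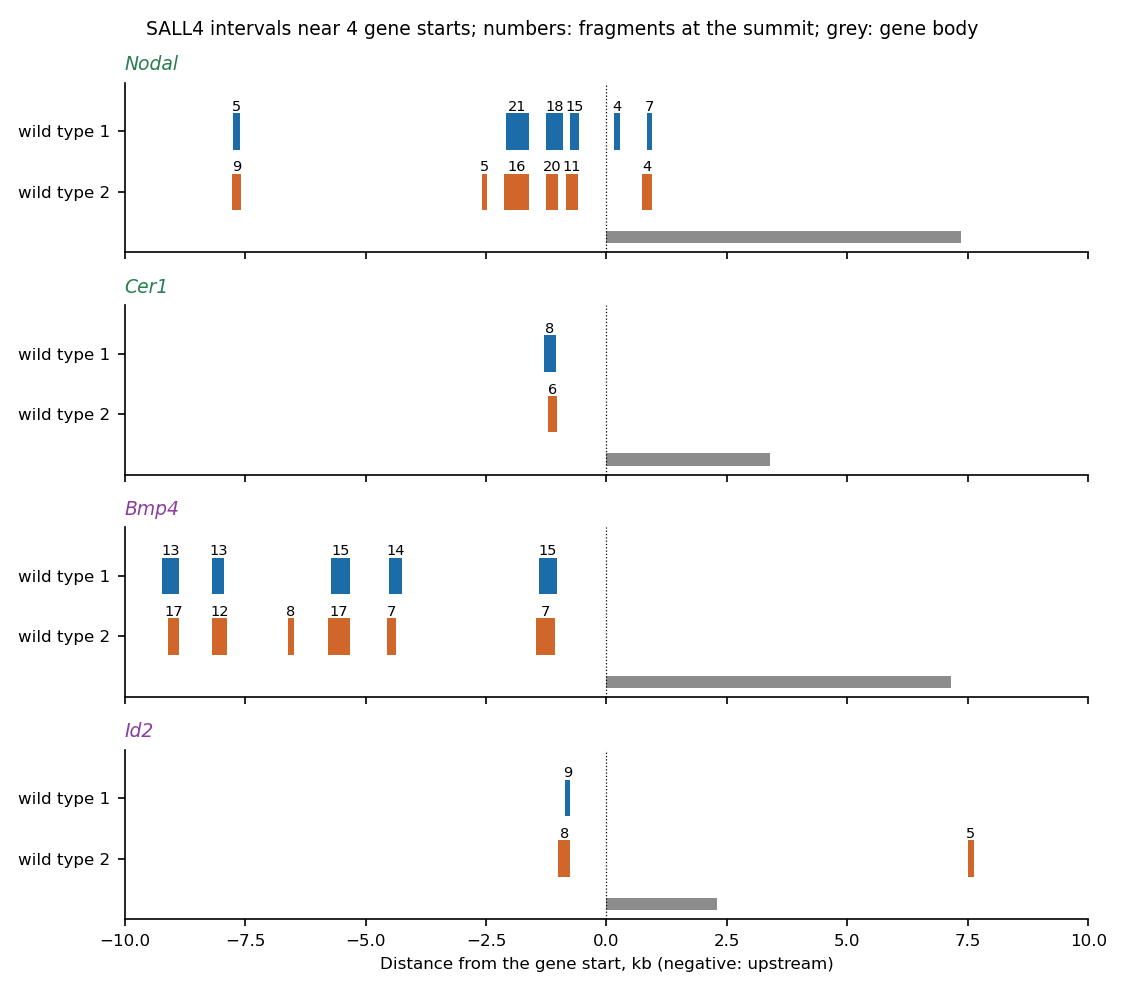
SALL4 intervals within 10 kb of the starts of Nodal, Cer1, Bmp4 and Id2, drawn to scale against distance from the start in kb (negative: upstream), with the number of fragments at each summit. Blue bars are wild-type replicate 1, orange bars wild-type replicate 2, and the grey bar is the gene body. At all 4 genes the intervals shared by the replicates lie mainly upstream, and none covers the start.

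Lefty1 and Lefty2 encode secreted inhibitors of Nodal that are themselves induced by it, and lie next to each other on chromosome 1, so their windows overlap and sites in the overlap count for both. Lefty2 (gene ID 320202, 180893108 to 180899107) had 8 and 4 intervals in replicates 1 and 2. Lefty1 (gene ID 13590, 180935022 to 180938401) had 7 and 3. In each window the 4 further intervals of replicate 1 were called in that replicate alone, on 5 to 11 fragments. The shared sites closest to either gene form a pair below Lefty2. The first (180888702 to 180888972) lies 4.31 kb from the gene, with fold enrichments of 8.37 and 5.91 on 17 and 12 fragments. The second (180889464 to 180889617) lies 3.56 kb from it, with 4.79 and 5.89 on 7 and 9 fragments. Lefty1 itself, with 10 kb on either side, had no interval in either replicate. Its strongest region, 180958723 to 180958960, lies 20.4 kb above it inside Tmem63a and had fold enrichments of 9.52 and 10.01. The remaining regions in the Lefty2 window, 180844670 to 180844842 and 180874042 to 180874155, lie closer to Sde2 than to Lefty2, with mean fold enrichments of 5.29 ± 1.01 and 4.11 ± 0.0372 (SD, n = 2).

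Cer1, a secreted antagonist that binds Nodal and BMPs, had the fewest intervals of the Nodal arm. Its window (gene ID 12622, chromosome 4, 82881751 to 82885151) held 2 and 1 intervals in replicates 1 and 2. The shared region, 82886172 to 82886454, has its summit 1.182 kb upstream of the start. Its fold enrichments were 6.20 and 4.76, on 8 and 6 fragments, which places it above 30.3% of consensus regions.

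Smad7, the inhibitory SMAD that acts on the receptors of the TGF-beta family, carried the strongest site of the Nodal arm. Its window (gene ID 17131, chromosome 18, 75367365 to 75395935) held 4 and 2 intervals in replicates 1 and 2, of which 1 was shared. That region, 75360833 to 75361206, lies 6.36 kb below the gene in the RNA gene Gm20544 and had fold enrichments of 15.2 and 12.9, on 21 and 18 fragments. Of all consensus regions, 87.0% were weaker. The other intervals of Smad7, called in 1 replicate each, had between 6 and 9 fragments.

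Skil encodes SnoN, a nuclear repressor that binds SMADs and is itself a target of TGF-beta family signalling. Its window (gene ID 20482, chromosome 3, 31095058 to 31122923) held 3 and 4 intervals, and 3 regions were shared. The strongest (31089503 to 31089703) lies 5.45 kb below the gene, with fold enrichments of 10.2 and 8.13 on 15 and 12 fragments. Inside the gene, the region 31098270 to 31098575 had 7.18 and 6.25 on 11 and 9 fragments. The third region, 15.9 kb above the gene at 31138759 to 31139167, had 8.26 and 6.80 and lies closer to Cldn11.

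Bmp4, the ligand of the BMP arm, had more intervals than any other of the 10 genes in both replicates. The window (gene ID 12159, chromosome 14, 46383525 to 46390669) held 15 and 13 intervals in replicates 1 and 2, or 14.0 and 12.1 per 100 kb, and 0 in both knockout lists. Of all coding genes, 1.41% had a mean density as high. Bmp4 was the nearest coding gene to all 12 of its consensus regions, and no summit among them lay inside an annotated gene.

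The sites of Bmp4 fall on both sides of the gene, and none lies inside it. Upstream, 5 regions had summits at 1.27, 4.41, 5.49, 8.06 and 8.98 kb before the start. The region nearest the start, 46391701 to 46392127, had fold enrichments of 11.0 and 5.44 on 15 and 7 fragments. Next to it, 46394921 to 46395228 had 10.3 and 5.44 on 14 and 7 fragments. The region 46395990 to 46396456 had 11.0 and 12.2 on 15 and 17 fragments. The outer pair, 46398555 to 46398846 and 46399545 to 46399891, had means of 9.24 ± 0.568 and 10.9 ± 1.84 (SD, n = 2). On the log2 scale, replicate 2 differed from replicate 1 by −1.02 and −0.93 at the 2 regions closest to the start and by 0.15, −0.13 and 0.34 at the other 3. Over all consensus regions the median of this difference was −0.127, with quartiles of −0.397 and 0.151.

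Further out, the strongest region of Bmp4 (46349109 to 46349786) lies 34.1 kb past the end of the gene, with fold enrichments of 12.2 and 14.6 on 23 and 28 fragments. Of all consensus regions, 85.7% were weaker. Beyond it, 3 regions lie between 42.8 and 45.9 kb from the gene, and the widest of them, 46338780 to 46339605, spans 826 bp against a median of 327 bp over all consensus regions. On the upstream side, regions at 22.2 and 46.0 kb had mean fold enrichments of 9.92 ± 0.574 and 3.77 ± 0.518 (SD, n = 2). A region at 28.3 kb had 8.26 in replicate 1 and 4.08 in replicate 2, a gap like that at the 2 regions closest to the start. Within 5 kb of 1 Bmp4 interval lay up to 5 intervals in replicate 1 and 6 in replicate 2, a number reached by 7.91% and 2.34% of all intervals. As at Nodal, the highest number in a window is set beside shares of single intervals, which do not say how rare such a window is.

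Id1, Id2 and Id3 encode inhibitors of basic helix-loop-helix factors and are direct targets of BMP signalling through SMAD1 and SMAD5. Their windows differed widely. Id2 (gene ID 15902, chromosome 12, 25093799 to 25096092) held 6 and 5 intervals in replicates 1 and 2, Id3 (gene ID 15903, chromosome 4, 136143822 to 136145392) held 1 and 3, and Id1 (gene ID 15901, chromosome 2, 152736251 to 152737410) held 1 and 1.

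At Id3 the site lies close to the gene and was the strongest of all 35 consensus regions of the 10 genes by its mean. The region, 136146648 to 136147311, has its summit 1.58 kb past the end of the gene in both replicates. Its fold enrichments were 14.99 and 13.8, with a mean of 14.4 ± 0.856 (SD, n = 2), and 87.8% of all consensus regions were weaker. The summit held 43 and 40 fragments, the highest numbers at any of the 10 genes, over local backgrounds of 1.94 and 1.98 fragments. The median background over the lists was 0.479 and 0.499. The Smad7 region reached a like fold enrichment with 21 and 18 fragments over 0.452 and 0.471. With 1 added to both terms these give like values although the plain ratios differ, and the Id3 site rests on more fragments and on a higher background. Mean fold enrichments of 14.4 ± 0.856 at Id3, 14.0 ± 1.58 at Smad7 and 13.4 ± 1.69 at Bmp4 (SD, n = 2) did not differ beyond the replicate spread.

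Id2 had its nearest region (25096847 to 25097095) 0.808 kb upstream of the start, with fold enrichments of 6.76 and 6.004 on 9 and 8 fragments. The strongest in its window, 25068891 to 25069272, lies 24.8 kb past the end of the gene and closer to Kidins220, with 11.5 and 8.005. At 18.8 and 49.1 kb upstream, regions at 25114780 to 25115161 and 25144746 to 25145357 had mean fold enrichments of 5.09 and 7.88. Id1 had no interval over its body and 1 in its window. That site, 152772349 to 152772597, has its summit 35.1 kb above the gene inside Bcl2l1, with fold enrichments of 9.65 and 10.1 on 18 and 19 fragments and the summit at the same base in both replicates.

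**Figure D3:**
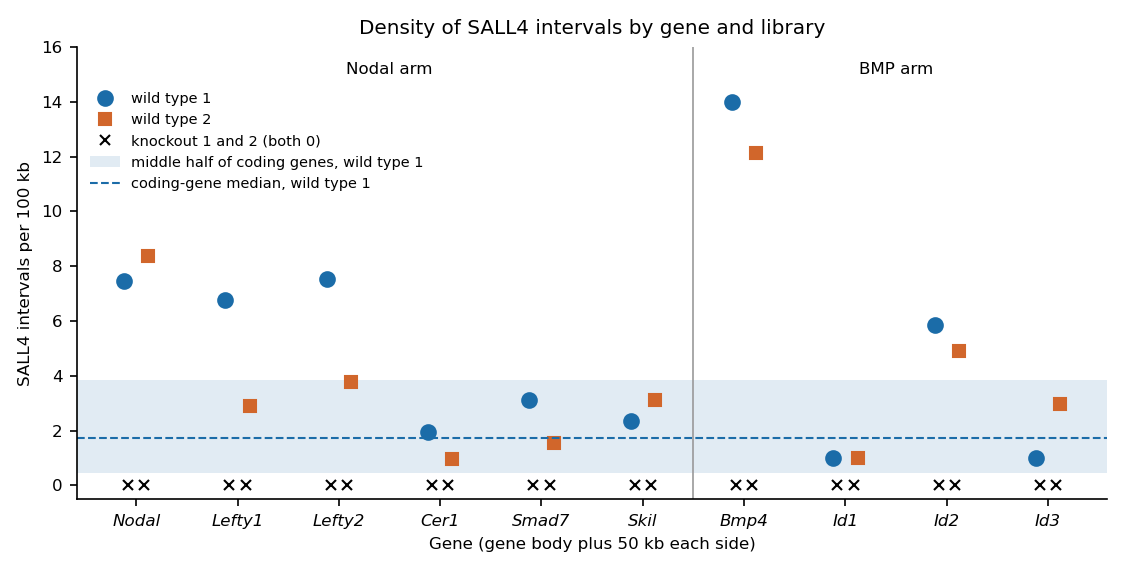
SALL4 intervals per 100 kb of window (gene body plus 50 kb each side) for each gene, with circles for wild-type replicate 1, squares for wild-type replicate 2 and crosses for the knockout libraries, which are all at 0. The dashed line and the band are the median and the range between the quartiles of coding genes in wild-type replicate 1. Bmp4 stands at 14.0 and 12.1, while Id1 stands at 0.989 in both replicates.

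The arms were then compared with each other within each library. Sites in overlapping windows counted once, and the Nodal arm covered 612.5 kb and the BMP arm 412.2 kb. The Nodal arm held 28 and 21 intervals in replicates 1 and 2, or 4.57 and 3.43 per 100 kb. The BMP arm held 23 and 22, or 5.58 and 5.34 per 100 kb. The log2 ratio of Nodal to BMP density was −0.29 and −0.64 in the 2 replicates, with a mean of −0.46, so the BMP arm was denser in both. An exact sign-flip test over 2 libraries cannot give a p below 0.5, which is the value here.

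The direction of that difference depended on Bmp4. Without Bmp4, an alternative chosen after seeing the data, the BMP arm held 2.62 and 2.95 intervals per 100 kb, and the log2 ratio turned to 0.80 and 0.22, with the Nodal arm denser. It also turned with windows of 100 kb on either side, to a mean of 0.088. With stricter intervals the mean ratio kept its sign and was larger, at −1.36 with −log10 q of at least 10 and −1.55 with a fold enrichment of at least 10. By gene, the mean of the 2 replicates ranged from 1.45 to 7.92 per 100 kb in the Nodal arm and from 0.989 to 13.1 in the BMP arm. The range of the BMP arm spans that of the Nodal arm, and the medians over genes were 4.94 and 3.02 in the Nodal arm against 3.43 and 3.92 in the BMP arm, opposite in order between replicates. More intervals per 100 kb than the coding-gene median (1.75 and 1.48) were found in both replicates for 5 of 6 Nodal genes (all but Cer1) and 2 of 4 BMP genes (Bmp4 and Id2), against 44.1% of coding genes.

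The fold enrichments of the arms covered the same range, from 3.36 to 15.2 in the Nodal arm and from 3.33 to 14.99 in the BMP arm in replicate 1. The median fold enrichment of the Nodal arm's intervals was 6.15 and 5.91 in replicates 1 and 2, and that of the BMP arm 8.26 and 6.06. The difference was −2.12 in replicate 1 and −0.15 in replicate 2, with a mean of −1.13, and the replicates were farther from each other than that mean is from 0. Without Bmp4 in the BMP arm, the mean difference was −0.57. Over both lists as a whole the medians were 5.86 and 5.56. Of the 17 consensus regions of the Nodal arm, 8 were stronger than the median of all consensus regions, and of the 18 of the BMP arm 12 were.

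The regions were also counted by position, with no test. In the Nodal arm 2 consensus regions overlapped a gene body, 9 lay within 10 kb of one and 6 farther out. In the BMP arm these numbers were 0, 7 and 11, and 12 of its 18 regions, 5 of them within 10 kb, lay at Bmp4. The shares over all consensus regions are not given here. A member was the nearest coding gene to the summit for 11 of 17 Nodal-arm regions and for 16 of 18 BMP-arm regions. Summits lay inside any annotated gene for 6 and 2 of them. A site in a window is therefore not assigned to the member by these data. In the Nodal arm 6 of 17 regions lie nearer to another coding gene. Bmp4 is the nearest coding gene to all 12 of its regions, so the share in the BMP arm rests largely on that gene. Just inside the 50 kb limit, from 45 kb outward, lay 5 and 4 intervals, and 2 and 1 lay between it and 55 kb.

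The replicates were compared at these sites. Of the intervals in the windows, 35 of 51 in replicate 1 were found in replicate 2 (68.6%, 95% Wilson interval 54.97 to 79.7), against 70.4% of its whole list. In the other direction 35 of 43 were found (81.4%, 67.4 to 90.3), against 79.3%. Both shares were near those of the lists. Intervals found in both lists had medians of 14 and 11 fragments, and those found in 1 list 7 and 6 fragments. The Wilson intervals cover counting error only. Between the replicates the summits of a region lay a median of 33 bp apart, against 32 bp over all consensus regions. Spearman's rho between the fold enrichments of the replicates was 0.65 across the 35 regions, compared with 0.77 over all 37997. These are correlations across sites, which share libraries and are not independent, and are given as descriptions.

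**Figure D4:**
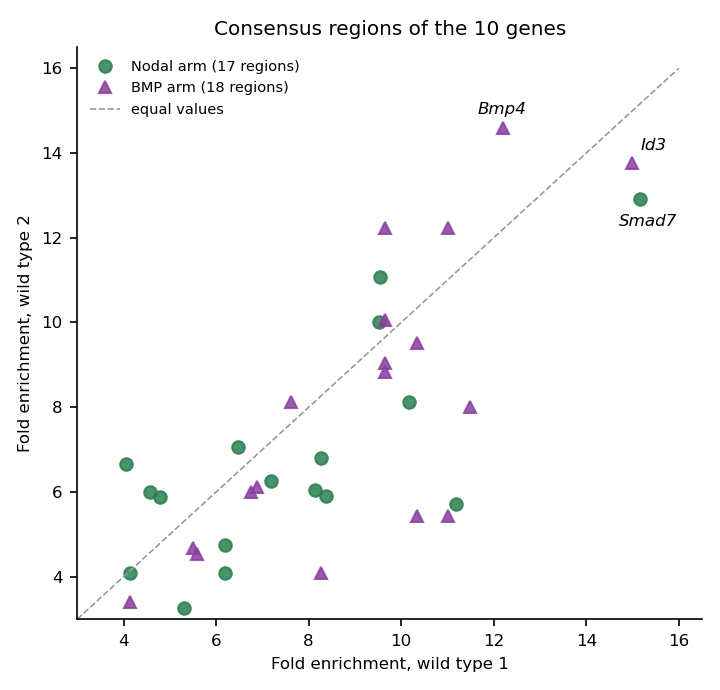
Fold enrichment of the 35 consensus regions in wild-type replicate 1 (horizontal axis) and replicate 2 (vertical axis), with circles for the 17 regions of the Nodal arm and triangles for the 18 of the BMP arm. The dashed line marks equal values. The strongest regions of Id3, Smad7 and Bmp4 lie at the upper right, and regions of both arms mix over the rest of the range.

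Around the 10 genes, 39 other genes of the pathways were examined from a fixed list, 20 for Nodal and 19 for BMP. A consensus region lay in the window of 16 of 20 Nodal genes and 13 of 19 BMP genes, against 68.7% of coding genes, so the first share lies above this background and the second close to it, with no test. Within 10 kb these were 11 of 20 and 9 of 19, against 42.1%. The median density was 2.24 and 2.03 intervals per 100 kb in replicates 1 and 2 for the Nodal genes and 1.44 and 1.74 for the BMP genes, compared with 1.75 and 1.48 over coding genes. Both knockout lists held 0 intervals at all 39.

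Among the other Nodal genes, the most consensus regions per 100 kb were found at Tgif1, Gdf3 and Tdgf1. Tgif1, a homeodomain repressor that binds SMAD2 and SMAD3, had 24 and 22 intervals and 17 consensus regions, or 15.5 per 100 kb. Its density of 22.0 and 20.1 intervals per 100 kb exceeded that of Bmp4, and 0.256% of coding genes had a mean as high. Gdf3, a ligand related to Nodal, had 13 and 8 intervals with 7 consensus regions, and Tdgf1 had 6 and 4 with 4. No consensus region was found at Acvr1c and Inhba (a receptor and a ligand subunit of the activin branch), Smad4 or Drap1, a co-repressor that binds FOXH1.

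Among the other BMP genes, the top positions were held by Id4, Acvr1 and Bmpr1a. Id4, the fourth ID gene, had 9 and 8 intervals and 8 consensus regions. Acvr1, a type I receptor, had 15 and 14 with 11 regions, of which 10 lay inside the gene. Bmpr1a, another type I receptor, had 12 and 10 with 8. No region was found at the ligands Bmp2 and Bmp8b, the antagonist Nog, Smad9, the ubiquitin ligase Smurf1 or the phosphatase Dusp9. The ID family thus ranged from 1 region in the windows of Id1 and of Id3, through 4 at Id2, to 8 at Id4.

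**Figure D5:**
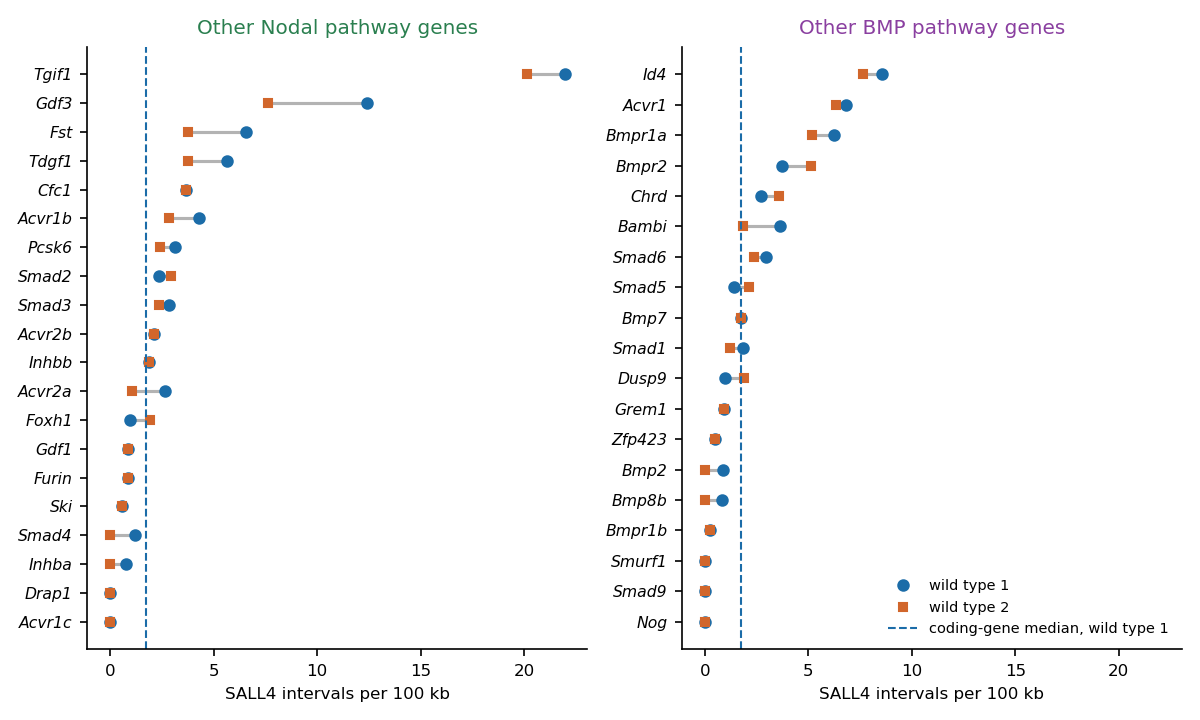
SALL4 intervals per 100 kb of window for 20 other Nodal pathway genes (left) and 19 other BMP pathway genes (right), ordered by the mean of both wild-type replicates. Circles are replicate 1, squares replicate 2, and the dashed line is the coding-gene median of replicate 1 at 1.75. Tgif1 stands apart at 22.0 and 20.1, and several genes of both lists are at 0.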

How the data were processed

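SALL4 CUT&RUN libraries (2 wild type, 2 knockout) were analysed from the 4 peak lists the authors deposited, 1 per sample. Groups and replicate numbers follow the sample titles. Per the submitters' processing notes, the builds are GRCm38 and mm10 and the tools named are Trim Galore 0.6.0, cutadapt 1.18, FastQC 0.11.8, BWA 0.7.17 and MACS2 2.1.1.20160309. Parameters and the control used in peak calling are not given in the sources used here. The authors' score is 10 times their −log10 q-value, cut to a whole number. Their deposited fold enrichment is the ratio of the pileup at a summit to its local background, each with 1 added, and a −log10 p-value and −log10 q-value are deposited beside it, with every q-value at most 0.05. Summit positions were taken from the deposited offset in bp.

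Overlapping lines of a list were merged, keeping the highest fold enrichment. Whole summit pileups were recovered from fold enrichment and p-value with a pseudocount of 1 and a tolerance of 0.0001 in −log10 p. On simulated data 100% of 4834 pileups and the counts in 100% of 31 gene windows were recovered. Gene positions, written from 1, and promoters are those of RefSeq on GRCm38.p6. The members and lists were chosen with earlier results of these data known. Named were all members, each consensus region in or within 10 kb of a member or strongest in its window, and the other pathway genes with none or the 3 with the most regions per 100 kb in each list. From the fixed list of BMP genes, 1 is not reported here and enters no count over that list. Regions farther out, the Tdgf1 promoter and Bmp4 as the gene behind the arm difference were named after their values were seen. Lists were compared with each other by exact tests over libraries, and genes or sites were never treated as replicates. The alternatives tried were stricter thresholds on q-value and fold enrichment, the window, the overlap rule, line counting, arm membership, each library left out and a replicate block. The planned search for motifs around summits needed a genome sequence and was replaced by promoters. Python 3.11.15, numpy 2.4.6, scipy 1.17.1, pandas 2.3.3 and matplotlib 3.10.9 were used.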

Additional observations from a re-analysis of the deposited data

How the results depend on the processing

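All 10 genes lie on autosomes and both knockout lists hold intervals only on X or Y, so the knockout count was 0 under all 13 alternatives and the direction of the genotype difference could not change. The log2 difference followed the wild-type count alone, from 1.79 (gene bodies only) to 6.40 (100 kb on either side) and 5.46 to 5.70 with 1 library left out. The exact p was 0.3333 in those with a test over unpaired libraries. In a replicate block that pairs libraries of the same number, the difference was 5.58 and the exact sign-flip p 0.5, the smallest 2 pairs allow. With 1 value per library, whether the numbers pair the samples was not tested.

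The log2 ratio of Nodal to BMP density, −0.46, reversed to 0.088 with 100 kb on either side and to 0.51 without Bmp4, and kept its sign under 9 other alternatives. Among these it was −1.55 at a fold enrichment of at least 10, −1.36 at −log10 q of at least 10, −0.13 without Smad7 and Skil, and −0.64 to −0.29 with 1 replicate left out. It has no value with gene bodies only, since the BMP arm then holds no interval. The difference in median strength was negative under all 10 alternatives and was −1.77 on the −log10 q scale, with a range of −2.12 to −0.15 when 1 replicate was left out.

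The share found in the other replicate, 75.01% on average, was 45% at a fold enrichment of at least 10, 73.3% at −log10 q of at least 10, 84.1% within 10 kb and 62.2% with summits within 100 bp. The share over all intervals is not given for these settings, so the shifts cannot be called particular to these genes. The cause of these shifts was not tested. Members with a consensus region (10) numbered 6 once −log10 q had to reach 10, 3 at a fold enrichment of at least 10 and 2 in gene bodies. The other pathway genes (29) numbered 16, 13 and 17 under the same settings. The shares of coding genes were 39.5%, 31.0% and 27.6%, with no matching for gene length. The motif search around summits with its window alternative was not run, and ATATT gave 0 member promoters, as did AATATT. The common −log10 p of at least 8 (log2 difference 4.87) and the arm without Bmp4 were chosen after seeing the data. The median interval rests on 9 fragments, which limits any comparison of strengths between neighbouring sites.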
